A study of Homo sapiens with 10 samples.

Results

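The aldehyde dehydrogenase (ALDH) genes described here are 10 of the 19215 gene symbols counted in each library: ALDH1A1, ALDH8A1, ALDH1L1, ALDH1L2, ALDH2, ALDH3A2, ALDH6A1, ALDH7A1, ALDH9A1 and ALDH18A1. They were taken by symbol from the count tables, and all 10 passed the filter on low counts that left 13349 genes for testing. The list was selected on values of the HepG2 decoy comparison that were already known, in which ALDH8A1 was high and ALDH1L2 low, so that comparison is a description and carries no test for these genes. ALDH1L1, ALDH1L2, ALDH2 and ALDH8A1 passed the filter through the HepG2 libraries alone. Another 9 family genes in the counts (ALDH1A2, ALDH1A3, ALDH1B1, ALDH3A1, ALDH3B1, ALDH3B2, ALDH4A1, ALDH5A1 and ALDH16A1) serve as the comparison.

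Aldehyde dehydrogenases oxidise aldehydes to acids with NAD+ or NADP+ as the acceptor of electrons. In liver they clear acetaldehyde made from alcohol, fatty aldehydes from lipid breakdown and semialdehydes from amino acid breakdown, and they make retinoic acid from retinaldehyde. Some members have other chemistry: the ALDH1L enzymes act on formyl-tetrahydrofolate, and ALDH18A1 is a reductase that starts proline and ornithine synthesis.

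Poly(A) RNA came from 10 libraries of 4 stable human lines: HepG2 with a miR-17 tough decoy (miR-17 TuD, 3 libraries), HepG2 with a negative control decoy (NC TuD, 3), SK-Hep1 miR-17 TuD (2) and SK-Hep1 NC TuD (2). A tough decoy is a lentiviral RNA hairpin that binds a microRNA family and blocks it. Per the labels, all 4 lines were transduced at a multiplicity of 5, kept in puromycin at 1 µg/mL for 2 weeks and pooled, so each arm is 1 stable line. Decoy and stable line therefore cannot be told apart, and since no label names separate cultures, the p-values measure a spread between libraries that may be technical.

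Gene counts ran between 12884225 and 15076431 per library, and levels are given as CPM, the count scaled to a common library total with edgeR's TMM factors. A gene without counts may still have up to 3 counts' worth of transcript, or 0.199 to 0.233 CPM; this floor and the count intervals cover counting error only. As a check of the decoy, the miR-17 target TGFBR2 averaged 468 CPM in HepG2 miR-17 TuD and 345 CPM in HepG2 NC TuD, and 199.9 CPM in SK-Hep1 miR-17 TuD against 131 CPM in SK-Hep1 NC TuD. The labels call both lines hepatocellular carcinoma. The 15 hepatocyte markers summed to between 78.9 and 110 CPM in the SK-Hep1 libraries, against 51387 to 61083 CPM in the HepG2 libraries, with TTR at 0 in every SK-Hep1 library. By the edgeR test described below, 86.7% of all genes differed between the lines in NC TuD cells (43.9% higher, 42.8% lower in SK-Hep1). Of 7 endothelial markers tested, 2 were higher (ENG and ROBO4) and 5 lower in SK-Hep1 NC TuD. PECAM1 was at 0 in every SK-Hep1 library and averaged 1.05 CPM in HepG2 NC TuD, while KDR was at 0 in all 10 libraries. Of 5 epithelial markers, 3 were higher and 2 lower in SK-Hep1 NC TuD. Of 8 mesenchymal markers, 5 were higher and 3 lower: CAV1 averaged 1288 CPM in SK-Hep1 NC TuD and 0.433 CPM in HepG2 NC TuD, while FN1 averaged 5974 CPM in SK-Hep1 NC TuD and 15464 CPM in HepG2 NC TuD.

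The first question was how the family differs between the lines. All 10 members were called between SK-Hep1 and HepG2 under both decoys: ALDH9A1 was higher and the other 9 were lower in SK-Hep1. For ALDH1L1, ALDH1L2, ALDH2 and ALDH8A1 the filter had already fixed that direction, so their values are a description. Among all genes tested, 86.7% were called between the lines in NC TuD cells (43.9% higher, 42.8% lower in SK-Hep1) and 87.3% in miR-17 TuD cells, so a call in every member is not a result about the family. Called means an adjusted p below 0.05 in the edgeR quasi-likelihood test, with Benjamini-Hochberg adjustment over all genes tested. The median log2 difference of the members, SK-Hep1 minus HepG2, was -2.67 in NC TuD cells and -2.10 in miR-17 TuD cells, against 0.02 over all genes in each. It was the same with ALDH1L1 set at its bound. Both medians include the genes whose direction the filter had fixed, so they too are a description.

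Of the retinoid and acetaldehyde enzymes, SK-Hep1 held traces. ALDH1A1, the cytosolic enzyme that makes retinoic acid, had 1.05 and 1.25 CPM in SK-Hep1 NC TuD, against 909, 887 and 862 CPM in HepG2 NC TuD. ALDH2, the mitochondrial enzyme that clears acetaldehyde, had 0.35 and 0.26 CPM in SK-Hep1 NC TuD, against 176, 172 and 173 CPM in HepG2 NC TuD. Both genes were thus far lower in SK-Hep1, by log2 differences of -9.57 and -9.11 (n = 2 against 3). For ALDH1A1, HepG2 held 768 times as much, with an exact 95% Poisson interval of 549 to 1109 that covers counting error only. The ALDH2 values rest on 4 to 5 counts per SK-Hep1 library, so its level there is known only within wide counting error: HepG2 held 569 times as much, with an exact 95% Poisson interval of 300 to 1245 that covers counting error only.

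Of the folate enzymes, ALDH1L1, the cytosolic formyl-tetrahydrofolate dehydrogenase, had no count in any of the 4 SK-Hep1 libraries. HepG2 NC TuD had 55.5, 50.4 and 56.9 CPM, so ALDH1L1 was at least 534-fold lower in SK-Hep1 NC TuD against a floor of 3 counts over the group, and at least 445-fold lower in SK-Hep1 miR-17 TuD. Its mitochondrial counterpart ALDH1L2 was low in both lines. It had 0.84 and 0.26 CPM in SK-Hep1 NC TuD, against 4.74, 5.65 and 6.19 CPM in HepG2 NC TuD. The log2 difference was -3.32 ± 0.31, with an SE that can be too small at counts this low. HepG2 NC TuD held 10.2 times as much ALDH1L2, with an exact 95% Poisson interval of 6.12 to 18.1 that covers counting error only.

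Of the amino acid enzymes, ALDH18A1, which starts proline and ornithine synthesis, averaged 102 ± 1.74 CPM in SK-Hep1 NC TuD and 324 ± 8.80 CPM in HepG2 NC TuD (SD, n = 2 and 3). ALDH6A1, which acts in valine and pyrimidine breakdown, averaged 13.2 ± 1.93 CPM in SK-Hep1 NC TuD and 53.6 ± 2.52 CPM in HepG2 NC TuD. ALDH7A1, which acts in lysine breakdown, averaged 120 ± 1.82 CPM in SK-Hep1 NC TuD and 179 ± 5.14 CPM in HepG2 NC TuD, the smallest log2 difference in size among the members (-0.58 ± 0.05). ALDH8A1, an aminomuconate semialdehyde dehydrogenase of tryptophan breakdown that also accepts retinaldehyde, was near the detection limit in SK-Hep1. It had 1 and 2 counts in the SK-Hep1 NC TuD libraries, against 42, 43 and 29 counts in those of HepG2 NC TuD. The log2 difference was -4.69 ± 0.48, with an SE that can be too small at counts this low. HepG2 NC TuD held 28.0 times as much, with an exact 95% Poisson interval of 9.33 to 138 that covers counting error only. The lower end of that interval lay above the ratios of ALDH18A1 (3.19, log2 difference -1.67 ± 0.05) and ALDH6A1 (4.05, -2.02 ± 0.09). The filter had fixed the direction of ALDH8A1, so its values are a description.

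ALDH3A2, which oxidises fatty aldehydes, averaged 87.3 ± 1.74 CPM in SK-Hep1 NC TuD and 237 ± 6.65 CPM in HepG2 NC TuD. ALDH9A1, which oxidises trimethylaminobutyraldehyde on the way to carnitine, was the exception to the common direction. It had 103 and 108 CPM in SK-Hep1 NC TuD, against 47.2, 45.7 and 45.3 CPM in HepG2 NC TuD, a log2 difference of 1.20 ± 0.06 (2.29-fold). The miR-17 TuD cells gave 1.17 ± 0.06 for the same gene. The plot of CPM by library shows the gap between the lines for 9 members and its reverse for ALDH9A1.

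**Figure D1:**
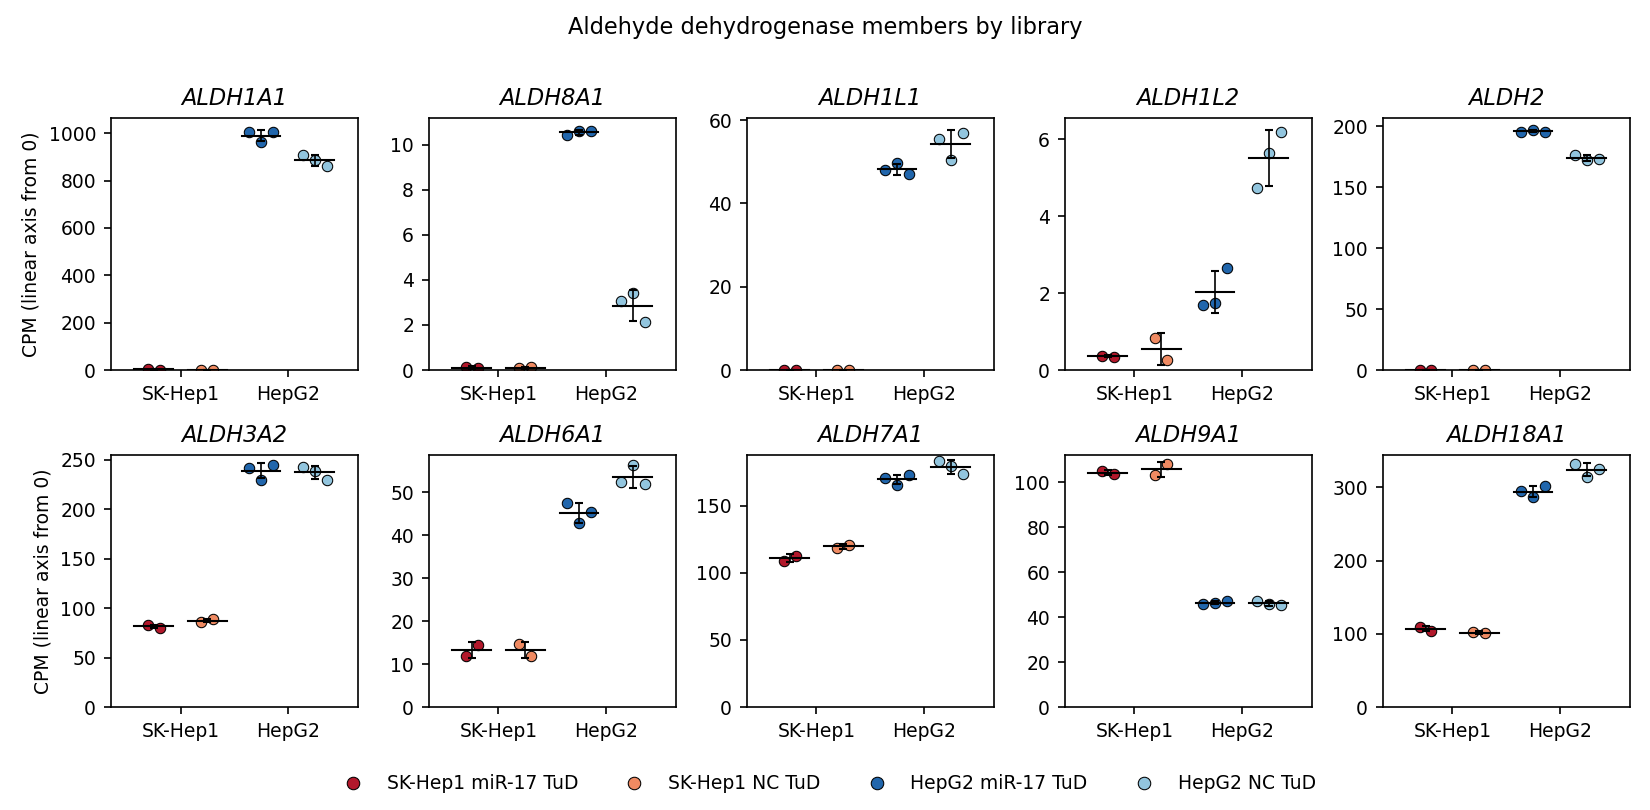
CPM of the 10 members in every library (points; 1 panel per gene, linear axes from 0), for SK-Hep1 miR-17 TuD, SK-Hep1 NC TuD, HepG2 miR-17 TuD and HepG2 NC TuD; lines are means and bars SD (n = 2 in SK-Hep1, 3 in HepG2). ALDH9A1 is the only panel with SK-Hep1 on top; within HepG2 the arms are farthest apart for ALDH8A1 and ALDH1L2.

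Set per length, as CPM per kilobase of the union of exons, the order of the members differed between the lines. In HepG2 NC TuD it ran ALDH1A1 (311), ALDH18A1 (86.1), ALDH3A2 (36.7), ALDH2 (17.9), ALDH9A1 (13.9), ALDH7A1 (9.95), ALDH6A1 (8.02), ALDH1L1 (3.96), ALDH8A1 (0.999) and ALDH1L2 (0.649 CPM per kilobase), with neighbours apart by more than their SDs. In HepG2 miR-17 TuD the same genes kept these places except that ALDH8A1 (3.68) stood just above ALDH1L1 (3.52 CPM per kilobase). In SK-Hep1 NC TuD the order was ALDH9A1 (31.9), ALDH18A1 (27.0), ALDH3A2 (13.5), ALDH7A1 (6.66), ALDH6A1 (1.98), ALDH1A1 (0.404), ALDH1L2 (0.0650), ALDH8A1 (0.0351), ALDH2 (0.0316) and ALDH1L1 (0 CPM per kilobase). ALDH1L2, ALDH8A1 and ALDH2 did not differ beyond their SDs there. SK-Hep1 miR-17 TuD had the same order, with ALDH1A1 at 0.905 CPM per kilobase. With the length of the longest coding transcript instead, ALDH7A1 and ALDH1L1 moved up in HepG2, where ALDH1L1 then stood above ALDH8A1 in both arms, and ALDH7A1 passed ALDH3A2 in SK-Hep1. The exon unions of ALDH7A1 and ALDH1L1 are 17970 and 13712 bases long and those transcripts 4964 and 3277 bases.

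Over the 19 family genes, ALDH1A1 made up 49.2% to 50.3% of the summed CPM per kilobase in HepG2 miR-17 TuD and 46.3% to 47.6% in HepG2 NC TuD. In SK-Hep1 it made up 0.547% to 0.733% in miR-17 TuD and 0.260% to 0.307% in NC TuD. The largest share in SK-Hep1 was instead that of ALDH1A3, another retinoic acid-making enzyme, at 26.1% to 26.6% in miR-17 TuD and 26.0% to 26.5% in NC TuD. ALDH1A3 had 3037 and 3321 counts in SK-Hep1 NC TuD against 1, 0 and 1 counts in HepG2 NC TuD. The lines thus hold different members of the retinaldehyde group at high level, as the plot of levels per length shows, and ALDH1A2, the third of that group, had at most 1 count in any library.

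**Figure D2:**
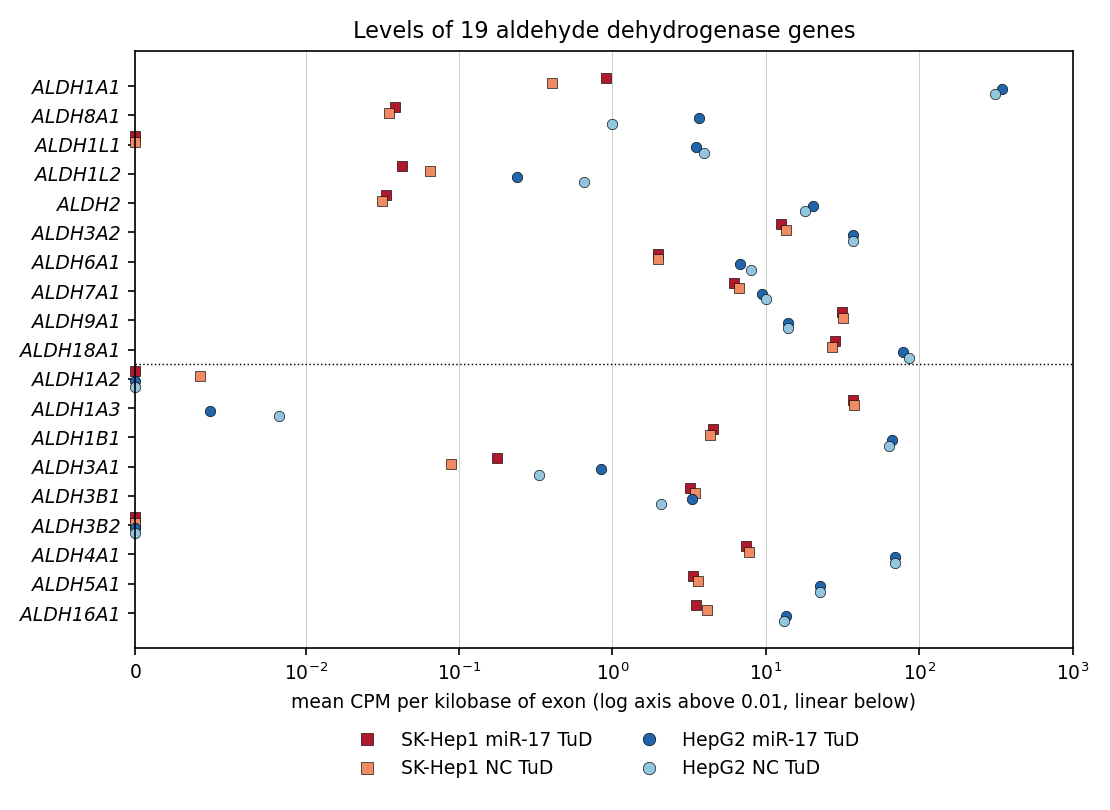
Mean CPM per kilobase of exon (horizontal, log axis above 0.01 and linear below) of the 10 members (above the dotted line) and 9 other family genes (below it), for SK-Hep1 miR-17 TuD, SK-Hep1 NC TuD, HepG2 miR-17 TuD and HepG2 NC TuD (n = 2, 2, 3 and 3 libraries). ALDH1A1 reaches 311 in HepG2 NC TuD and 0.404 in SK-Hep1 NC TuD, while ALDH1A3 lies at 37.4 in SK-Hep1 NC TuD and under 0.01 in HepG2 NC TuD.

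The second question was what differed in HepG2 with the miR-17 family blocked. ALDH8A1 had 10.4, 10.6 and 10.6 CPM in HepG2 miR-17 TuD, against 3.06, 3.42 and 2.11 CPM in HepG2 NC TuD. All miR-17 TuD libraries lay above all NC TuD libraries, and the log2 fold change was 1.89 ± 0.15 (SE, n = 3 against 3), or 3.70-fold. ALDH1L2 went the other way. It had 1.68, 1.74 and 2.65 CPM in HepG2 miR-17 TuD, against 4.74, 5.65 and 6.19 CPM in HepG2 NC TuD, a log2 fold change of -1.46 ± 0.20. These are the values that chose the list, and they rest on low counts: 149, 159 and 140 for ALDH8A1 and 24, 26 and 35 for ALDH1L2 in the miR-17 TuD libraries, against 42, 43 and 29 and 65, 71 and 85 in the NC TuD libraries.

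The other 8 members differed by small amounts in HepG2. ALDH1A1 had 1004, 961 and 1004 CPM in HepG2 miR-17 TuD, against 909, 887 and 862 CPM in HepG2 NC TuD, a log2 fold change of 0.16 ± 0.03. ALDH2 had 195, 197 and 196 CPM in HepG2 miR-17 TuD, against 176, 172 and 173 CPM in HepG2 NC TuD, a log2 fold change of 0.17 ± 0.04. For both genes the arms did not overlap, at 1.12-fold and 1.13-fold.

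ALDH18A1 had 296, 286 and 302 CPM in HepG2 miR-17 TuD, against 333, 315 and 325 CPM in HepG2 NC TuD (log2 fold change -0.14 ± 0.04). ALDH6A1 had 47.5, 42.9 and 45.3 CPM in HepG2 miR-17 TuD, against 52.3, 56.5 and 51.9 CPM in HepG2 NC TuD (-0.24 ± 0.06). ALDH1L1 had 48.1, 49.6 and 46.9 CPM in HepG2 miR-17 TuD, against 55.5, 50.4 and 56.9 CPM in HepG2 NC TuD (-0.17 ± 0.06). These 3 were lower in every miR-17 TuD library than in any NC TuD library, although the gap for ALDH1L1 was under 1 CPM. ALDH7A1 had a log2 fold change of -0.08 ± 0.04, ALDH3A2 of 0.01 ± 0.04 and ALDH9A1 of 0.01 ± 0.06, with overlapping arms in ALDH3A2 and ALDH9A1. The arms of ALDH7A1 were narrowly apart, with at most 172.5 CPM in HepG2 miR-17 TuD and at least 173.4 CPM in HepG2 NC TuD. How many of all genes had HepG2 arms apart was not counted, so nothing is read from such separations in the members.

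By the fit over all genes, 3 of the 10 members were higher, 4 lower and 3 not called, while 19.3% of all genes tested were called (10.7% higher, 8.58% lower). Nothing is read from that count, since the list was drawn up with this comparison known. The median log2 fold change of the members was -0.03, against 0.00 over all genes. The hepatocyte markers moved in the same libraries: their summed level was 51387 to 53902 CPM in HepG2 miR-17 TuD and 58945 to 61083 CPM in HepG2 NC TuD, with 8 of 15 lower and 2 higher, and its part in the values of the members was not tested. All 5 epithelial markers and 4 of 8 mesenchymal markers were higher in HepG2 miR-17 TuD, and their part was not tested either.

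The same decoy was tested in SK-Hep1, in libraries that the HepG2 comparison did not use. The list was still drawn up with earlier results of these data known. ALDH1A1 was the 1 member of 10 that changed there, and it was higher, with 0.869% of all genes tested called in either direction. It had 2.99 and 2.17 CPM in SK-Hep1 miR-17 TuD, from 40 and 31 counts, against 1.05 and 1.25 CPM in SK-Hep1 NC TuD, from 15 and 19 counts. The arms did not overlap, and the log2 fold change was 1.15 ± 0.27 (n = 2 against 2, adjusted p = 0.0128, edgeR quasi-likelihood test). At counts this low the SE of the fit can be too small, and the p-value with it. The ratio of the summed counts, 71 against 34, scaled to library size, was 2.22 with an exact 95% Poisson interval of 1.46 to 3.45. The call was lost when any of 3 libraries was left out: the adjusted p from the same fit was 0.254 without SK-Hep1 NC TuD replicate 1, 0.0967 without SK-Hep1 NC TuD replicate 2 and 0.562 without SK-Hep1 miR-17 TuD replicate 1. It held at 0.0150 without SK-Hep1 miR-17 TuD replicate 2.

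Transcripts abundant in HepG2 were also present at trace level in SK-Hep1, and not equally in its arms. ALB, the albumin gene, had 0 and 4 counts in SK-Hep1 miR-17 TuD, against 59 and 113 counts in SK-Hep1 NC TuD, the opposite direction to ALDH1A1. The fibrinogen chain FGA had 27 and 21 counts in SK-Hep1 miR-17 TuD, against 1 and 7 counts in SK-Hep1 NC TuD, the same direction as ALDH1A1. Over the 15 hepatocyte markers the summed level was 78.9 to 83.7 CPM in SK-Hep1 miR-17 TuD, with APOA1, TTR and APOH at 0, and 87.3 to 110 CPM in SK-Hep1 NC TuD, with TTR at 0. SERPINA1 made up most of each sum; the other 14, a split made after the values were seen, summed to 13.6 and 11.6 CPM in SK-Hep1 miR-17 TuD, against 23.5 and 44.1 CPM in SK-Hep1 NC TuD. Of these markers 3 were called higher and 5 lower, and their part in the ALDH1A1 difference was not tested. In bulk RNA a few cells with much of a transcript and a little of it in all cells cannot be told apart.

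**Figure D3:**
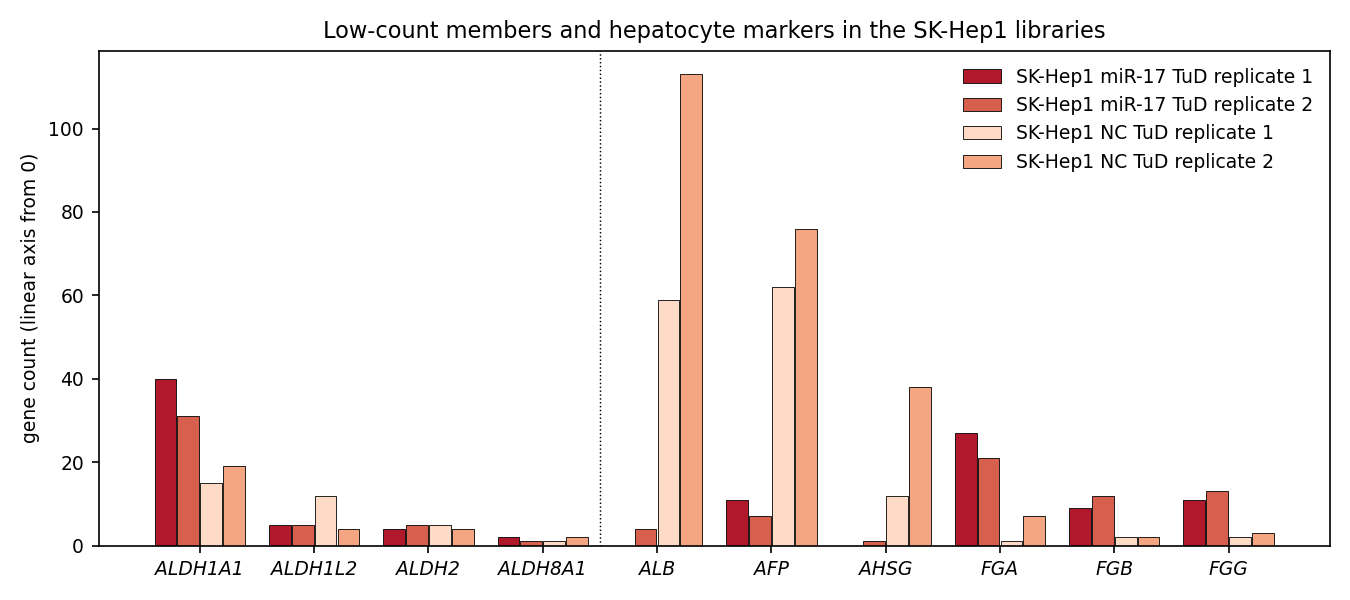
Gene counts (bars, linear axis from 0) in the 2 SK-Hep1 miR-17 TuD and 2 SK-Hep1 NC TuD libraries for 4 members (left of the dotted line) and 6 hepatocyte markers (right). ALDH1A1 has 40 and 31 counts against 15 and 19, ALB 0 and 4 against 59 and 113, and FGA 27 and 21 against 1 and 7.

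The 2 members that stood out in HepG2 could not be followed at the depth of SK-Hep1. ALDH8A1 had 2 and 1 counts in SK-Hep1 miR-17 TuD, against 1 and 2 counts in SK-Hep1 NC TuD. Its log2 fold change of 0.08 ± 1.11 has a 95% interval of -2.10 to 2.26, which includes the 1.89 of HepG2. ALDH1L2 had 5 and 5 counts in SK-Hep1 miR-17 TuD, against 12 and 4 counts in SK-Hep1 NC TuD, a log2 fold change of -0.58 ± 0.62 (adjusted p = 0.863, edgeR) with an interval of -1.78 to 0.63. A difference was not detectable at this depth in either gene, nor in ALDH2 with 4 and 5 counts against 5 and 4. ALDH1L1 had no counts in either arm.

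The 5 members well counted in SK-Hep1 stayed near their NC TuD levels, and none passed the test. The log2 fold change was -0.10 ± 0.06 for ALDH3A2 (adjusted p = 0.677), -0.11 ± 0.05 for ALDH7A1 (0.574), 0.07 ± 0.05 for ALDH18A1 (0.777), -0.02 ± 0.06 for ALDH9A1 (0.975) and 0.01 ± 0.12 for ALDH6A1 (1, all by edgeR). ALDH3A2 had 82.7 and 80.4 CPM in SK-Hep1 miR-17 TuD, against 86.1 and 88.5 CPM in SK-Hep1 NC TuD. ALDH7A1 had 109 and 113 CPM in SK-Hep1 miR-17 TuD, against 118 and 121 CPM in SK-Hep1 NC TuD. For ALDH9A1 the values were 105 and 103 CPM in SK-Hep1 miR-17 TuD, against 103 and 108 CPM in SK-Hep1 NC TuD. The arms overlapped for ALDH9A1 and ALDH6A1 and not for ALDH3A2, ALDH7A1 or ALDH18A1. The 95% intervals of these last were -0.21 to 0.01, -0.22 to -0.01 and -0.03 to 0.18. How many of all genes had SK-Hep1 arms apart was not counted, so nothing is read from these separations. ALDH18A1 had 110 and 105 CPM in SK-Hep1 miR-17 TuD, against 103 and 101 CPM in SK-Hep1 NC TuD, and ALDH6A1 11.9 and 14.6 CPM in SK-Hep1 miR-17 TuD, against 14.6 and 11.9 CPM in SK-Hep1 NC TuD. The median log2 fold change of the members was 0.00, against -0.01 over all genes.

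The plot of decoy responses sets the lines side by side. Between the responses, SK-Hep1 minus HepG2, 3.75% of all genes tested were called. Among the members ALDH1A1 was called, with a difference of 0.99 ± 0.27 on the log2 scale. This contrast holds the HepG2 comparison, so the value is given as a description, and its SE can be too small at the low SK-Hep1 counts. ALDH18A1 had a difference of 0.21 ± 0.07 and ALDH6A1 of 0.25 ± 0.14. For ALDH8A1 the difference was -1.80 ± 1.26 and for ALDH1L2 0.88 ± 0.69, both with intervals that include no difference.

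**Figure D4:**
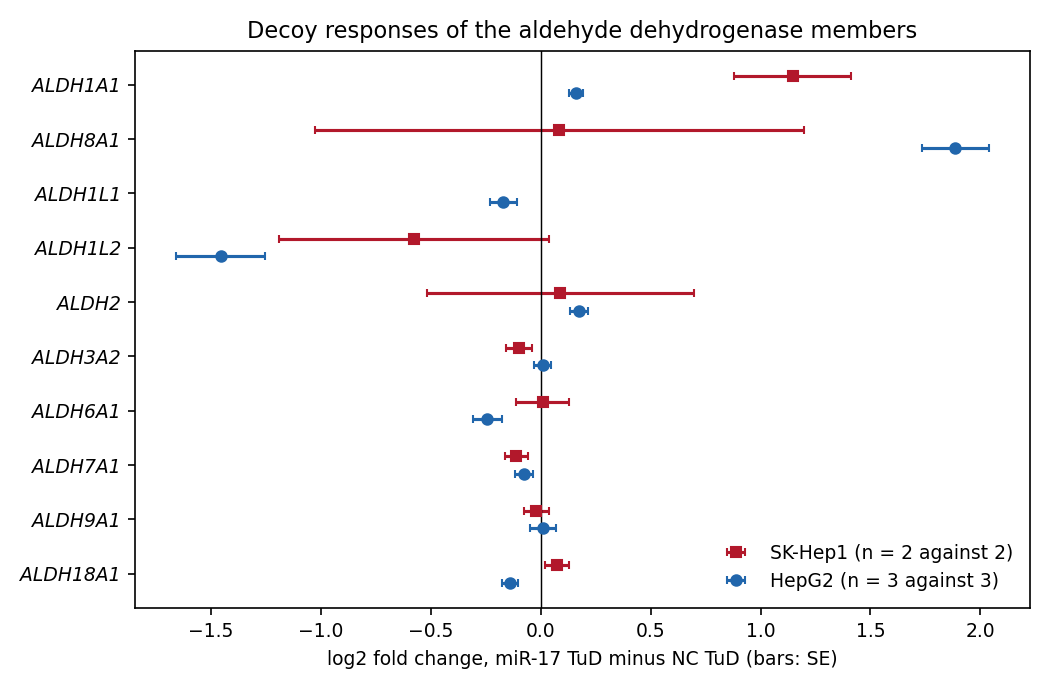
log2 fold change, miR-17 TuD minus NC TuD (horizontal), of each member in SK-Hep1 (squares, n = 2 against 2) and HepG2 (circles, n = 3 against 3); bars are SE, and ALDH1L1 has no SK-Hep1 point since it had no counts there. ALDH1A1 lies at 1.15 in SK-Hep1 and 0.16 in HepG2, while ALDH8A1 lies at 1.89 and ALDH1L2 at -1.46 in HepG2 with wide bars in SK-Hep1.

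Sites for the blocked microRNAs were then sought in the 3′ untranslated regions (3′UTR) of the members. The decoy targets microRNAs that share the seed of miR-17, and the members of that family from its 3 known clusters are shown because the search rests on their common letters. On chromosome 19, miR-526b-3p and miR-519d-3p have the same seed letters and are named only. The mature sequences are those of RefSeq on GRCh38.p14, with the seed (bases 2 to 8) in capitals.
miR-17-5p: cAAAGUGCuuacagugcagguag
miR-20a-5p: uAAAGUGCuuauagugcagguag
miR-20b-5p: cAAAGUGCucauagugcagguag
miR-93-5p: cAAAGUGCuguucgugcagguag
miR-106a-5p: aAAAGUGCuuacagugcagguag
miR-106b-5p: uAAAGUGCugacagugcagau
A site is a match to that seed in the longest 3′UTR of GENCODE 29: an 8mer is GCACTTTA, a 7mer-m8 GCACTTT and a 7mer-A1 CACTTTA, on the strand of the transcript only. Of the 10 members, 6 had a 7mer-m8 and none an 8mer: ALDH2 had 5, ALDH7A1 had 2, and ALDH8A1, ALDH1L2, ALDH3A2 and ALDH9A1 had 1 each. ALDH1L2 also had a 7mer-A1. ALDH1A1, ALDH1L1, ALDH6A1 and ALDH18A1 had none. Among 12730 tested genes with a 3′UTR, 25.0% had an 8mer or 7mer-m8, with a median 3′UTR of 1343 bases, while that of ALDH2 has 7954 bases. The lengths differ and sites can lie in sequence that many genes share, so nothing about the family is read from the count.

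Of the 11 windows around a 7mer-m8, those of ALDH1L2 and ALDH9A1 are shown as examples with the site in capitals (GRCh38, strand of the transcript).
ALDH1L2 at chr12:105022699-105022727, minus strand: ttggcctggaaGCACTTTtgattatacta
ALDH9A1 at chr1:165662367-165662395, minus strand: ttgcctagtaaGCACTTTgtctctgttca
A match is a description of letters, and whether any of these sites bears on the levels was not tested.

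The promoters of the members also differed in their letters. RefSeq windows of 250 bases before to 50 after the start were matched for 8 members, and ALDH1L2 and ALDH2 are named only. Of the matched windows (GRCh38.p14), 3 are shown because their genes had the patterns described above: ALDH1A1, high in HepG2 and low in SK-Hep1; ALDH8A1, high in HepG2 miR-17 TuD; and ALDH9A1, higher in SK-Hep1. Capitals mark motifs found on either strand.
ALDH1A1 at chr9:72953004-72953303, minus strand: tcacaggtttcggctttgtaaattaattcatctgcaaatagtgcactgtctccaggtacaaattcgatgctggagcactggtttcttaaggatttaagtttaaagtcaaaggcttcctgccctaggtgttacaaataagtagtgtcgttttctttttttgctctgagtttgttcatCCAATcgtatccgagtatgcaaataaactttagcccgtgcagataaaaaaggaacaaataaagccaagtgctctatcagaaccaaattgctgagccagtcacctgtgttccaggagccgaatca
ALDH8A1 at chr6:134950052-134950351, minus strand: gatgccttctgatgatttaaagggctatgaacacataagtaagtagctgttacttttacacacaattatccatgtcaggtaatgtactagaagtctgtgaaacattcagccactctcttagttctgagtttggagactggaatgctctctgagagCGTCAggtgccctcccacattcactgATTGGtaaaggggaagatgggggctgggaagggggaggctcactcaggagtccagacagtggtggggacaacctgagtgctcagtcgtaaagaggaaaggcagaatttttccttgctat
ALDH9A1 at chr1:165698513-165698812, minus strand: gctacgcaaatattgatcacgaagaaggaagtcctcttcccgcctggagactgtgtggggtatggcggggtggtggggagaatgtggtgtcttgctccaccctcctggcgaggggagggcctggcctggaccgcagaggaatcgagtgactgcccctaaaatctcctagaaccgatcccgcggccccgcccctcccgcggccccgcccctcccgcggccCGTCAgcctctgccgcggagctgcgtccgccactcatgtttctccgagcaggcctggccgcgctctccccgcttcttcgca
The bases G and C made up 40.3% of the ALDH1A1 window, 46.7% of that of ALDH8A1 and 66.7% of that of ALDH9A1, against a median of 58.7% over 35116 promoters. The ALDH1A1 window held the CCAAT box, which is in 34.6% of all promoters. The ALDH8A1 window held it in the reverse letters ATTGG, with the core of the cAMP response element, TGACG, as CGTCA. That core is in 24.6% of all promoters and also in the ALDH9A1 window. None of these 3 windows held TATAAA (11.5% of all promoters), TGACGTCA (1.85%), the ATF4 and CEBP composite TGATGNAA (3.62%), the HNF4 element CAAAGTNCA (1.10%) or CACGTG (7.26%), all sought on both strands. TGACG is part of TGACGTCA.

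Each member was set beside other genes of its pathway, from lists that hold no member. The lists were drawn up with earlier results of these data known, so the calls and values of their genes are a description. Of all genes tested, 19.3% were called with the decoy in HepG2, 0.869% in SK-Hep1 and 86.7% between the lines in NC TuD. Of the retinoid genes, 14 of 20 were tested, and in HepG2 3 rose and 3 fell with the decoy. STRA6, a receptor for vitamin A uptake, averaged 1.97 ± 0.486 CPM in HepG2 miR-17 TuD and 4.52 ± 0.653 CPM in HepG2 NC TuD (SD, n = 3 each). RDH10, which makes retinaldehyde, rose by 0.20 ± 0.07 on the log2 scale. In SK-Hep1 none of the 14 was called by the decoy. Between the lines in NC TuD, 3 were higher and 9 lower in SK-Hep1: the plasma retinol carrier RBP4 averaged 0.270 ± 0.0831 CPM in SK-Hep1 NC TuD and 480 ± 1.11 CPM in HepG2 NC TuD, while the retinoic acid receptor RARB averaged 9.97 ± 0.292 CPM in SK-Hep1 NC TuD and 0.0265 ± 0.0459 CPM in HepG2 NC TuD.

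Of the alcohol and acetaldehyde genes, 8 of 12 were tested, and with the decoy in HepG2 1 rose and 2 fell. CAT, the catalase gene, averaged 145 ± 5.75 CPM in HepG2 miR-17 TuD and 114 ± 3.25 CPM in HepG2 NC TuD. Between the lines in NC TuD, where 86.7% of all genes were called, 7 were lower and 1, CYP2E1, was higher in SK-Hep1, at 1.77 ± 0.0844 CPM in SK-Hep1 NC TuD and 0.104 ± 0.122 CPM in HepG2 NC TuD. The alcohol dehydrogenase ADH4 averaged 0.0351 ± 0.0497 CPM in SK-Hep1 NC TuD and 53.0 ± 3.98 CPM in HepG2 NC TuD.

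All 21 folate genes were tested. With the decoy in HepG2, where 19.3% of all genes were called, 3 fell and none rose. MTHFD2, which works in the mitochondrial folate path with ALDH1L2, averaged 172 ± 5.14 CPM in HepG2 miR-17 TuD and 199 ± 7.36 CPM in HepG2 NC TuD (log2 fold change -0.21 ± 0.04). GLDC and SHMT2, which feed the same path with glycine and serine carbons, fell by 0.18 and 0.11 on the log2 scale. Of the 16 genes listed for ATF4 and amino acid stress, 6 fell and 2 rose in HepG2. The 2 that rose were TRIB3 and DDIT4. TRIB3 averaged 191 ± 12.7 CPM in HepG2 miR-17 TuD and 175 ± 3.95 CPM in HepG2 NC TuD. DDIT4 averaged 69.2 ± 6.47 CPM in HepG2 miR-17 TuD and 61.6 ± 5.32 CPM in HepG2 NC TuD. ATF4 itself averaged 398 ± 9.29 CPM in HepG2 miR-17 TuD and 452 ± 10.6 CPM in HepG2 NC TuD, and ASNS, an asparagine synthetase, 59.7 ± 1.07 CPM in HepG2 miR-17 TuD and 69.8 ± 0.876 CPM in HepG2 NC TuD. The medians of both lists were small, -0.04 and -0.13 on the log2 scale, and in SK-Hep1 none of either list was called.

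Of the proline and ornithine genes, 9 of 10 were tested. With the decoy in HepG2, where 19.3% of all genes were called, 4 fell and none rose. GLUL, glutamine synthetase, averaged 355 ± 14.9 CPM in HepG2 miR-17 TuD and 416 ± 2.73 CPM in HepG2 NC TuD, and PYCR1, which completes proline synthesis after ALDH18A1, 339 ± 18.8 CPM in HepG2 miR-17 TuD and 380 ± 24.8 CPM in HepG2 NC TuD. Of 22 genes of branched-chain amino acid breakdown, where ALDH6A1 acts, 1 rose and 3 fell in HepG2, among them BCAT1, a transaminase that fell by 0.31 ± 0.05 on the log2 scale. Of 8 tested tryptophan and kynurenine genes, the path of ALDH8A1, 1 rose (HAAO, by 0.26 ± 0.07) and 2 fell in HepG2, led by CCBL2, a kynurenine transaminase, at -0.35 ± 0.08 on the log2 scale. Between the lines in NC TuD, where 86.7% of all genes were called, 1 of these 8 was higher and 6 were lower in SK-Hep1. Of 10 tested lysine, choline and carnitine genes, the paths of ALDH7A1 and ALDH9A1, 2 rose and 1 fell: BHMT, which remethylates homocysteine, averaged 10.4 ± 0.722 CPM in HepG2 miR-17 TuD and 6.50 ± 0.996 CPM in HepG2 NC TuD.

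Of 10 tested fatty aldehyde and ether lipid genes, the setting of ALDH3A2, 3 rose and 1 fell in HepG2, where 19.3% of all genes were called. They were led by the sphingosine phosphate lyase SGPL1 at 0.26 ± 0.05 on the log2 scale. Between the lines FAR1, a reductase that makes fatty alcohols, averaged 111 ± 3.26 CPM in SK-Hep1 NC TuD and 0.40 ± 0.0369 CPM in HepG2 NC TuD. Among 12 tested PPARA and lipid oxidation genes, 2 rose and 3 fell in HepG2. CPT1A, which lets long-chain fatty acids into mitochondria, averaged 59.7 ± 2.65 CPM in HepG2 miR-17 TuD and 21.2 ± 0.990 CPM in HepG2 NC TuD. FABP1, a fatty acid carrier of hepatocytes, averaged 82.7 ± 1.96 CPM in HepG2 miR-17 TuD and 131 ± 6.03 CPM in HepG2 NC TuD. In SK-Hep1 1 of these lists had a call, ANGPTL4, a lipase inhibitor, at 0.38 ± 0.08 on the log2 scale, which is a description too.

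Of the other 9 family genes, 7 were tested. In HepG2, where 19.3% of all genes were called, 2 were higher with the decoy and none lower. ALDH3A1, which oxidises aromatic and fatty aldehydes, had 3.29, 3.21 and 3.41 CPM in HepG2 miR-17 TuD, against 1.24, 1.11 and 1.53 CPM in HepG2 NC TuD, a log2 fold change of 1.34 ± 0.24. ALDH3B1, which acts on lipid-derived aldehydes, had 24.0, 23.5 and 18.4 CPM in HepG2 miR-17 TuD, against 14.1, 12.0 and 14.9 CPM in HepG2 NC TuD, a log2 fold change of 0.69 ± 0.10. In SK-Hep1 ALDH3B1 had 20.5 and 21.6 CPM in miR-17 TuD, against 25.2 and 20.5 CPM in NC TuD. The arms overlapped there. ALDH3B1 has a close copy, ALDH3B2, which had no counts, and reads that matched several places were not counted.

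Over the 10 libraries, the genes closest to ALDH8A1 in log2 CPM included DSC3 (Pearson r = 0.996) and TNNI2 (0.995), among 11985 genes searched. DSC3, a desmosomal cadherin, averaged 7.23 CPM in HepG2 miR-17 TuD, 2.22 CPM in HepG2 NC TuD, 0.0723 CPM in SK-Hep1 miR-17 TuD and 0.101 CPM in SK-Hep1 NC TuD. For ALDH1L2 they were ACSL3 (0.987), RHBDL2 (0.986) and FNBP1 (0.983), and for ALDH1A1 TMEM37, MVB12B and LSR (each over 0.999). These values describe 10 points, the libraries, that share 2 lines and 4 groups, and the gap between the lines is part of each of them.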

How the data were processed

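Poly(A) RNA was sequenced as 50 bp pairs from 150 ng of total RNA with a kit that does not mark strand, so reads of a gene and of an overlapping antisense gene cannot be told apart. Read counts per gene symbol were made by the authors with STAR and HTSeq 0.5.4p5 on hg19, per the submitters' processing notes; the series' design text names other tools and a mouse genome, and the counts, which carry human symbols, were used as deposited. The authors also deposited a log2 matrix of 13658 genes, whose values equal log2(count + 0.5) shifted by 1 factor per library in 13616 genes shared by name. No column of per-sample values was left unused (0). Pairs not assigned to a gene were 19.3% to 22.3% per library (11.6% to 14.1% in no gene, the rest ambiguous, not aligned or not unique) and stayed out of library sizes.

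Counts were tested with edgeR 4.0.16 (R 4.3.3): filterByExpr with a minimum count of 10, TMM scaling, robust quasi-likelihood fit of 4 group means over all 10 libraries, and Benjamini-Hochberg adjustment over the 13349 genes tested. The 95% intervals of log2 fold changes are the estimate with a normal interval from its SE. That SE is the size of the log2 fold change over the root of its F statistic. It can be too small where the gap between the lines is large and SK-Hep1 has few counts. Alternatives were DESeq2 1.42.0, RLE scaling, no filter, only the libraries compared, a replicate block, each library left out, limma 3.58.1 on the log2 matrix, and another gene length. Fits were tested on simulated data. Same-numbered libraries did not deviate together: correlations over 5983 genes ran from -0.502 to 0.0917, so the numbers were not taken as pairs.

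The members and all gene lists were chosen with earlier results of these data known. All 10 members are named; of each list, up to 3 called genes per direction with the smallest adjusted p could be named, and for ALDH8A1, ALDH1L2 and ALDH1A1 the 3 genes of highest Pearson r in log2 CPM. Of the genes and site windows these rules give, 1 gene and some windows are not reported here. Positions are GRCh38 from GENCODE 29, promoters and microRNAs RefSeq on GRCh38.p14; no coordinate comes from the hg19 alignment. Python 3.11.15, pandas 2.3.3 and scipy 1.17.1 were used.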

Additional observations from a re-analysis of the deposited data

Results flagged for a closer look

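ALDH1A1 had unlike decoy responses in the lines; the contrast holds the HepG2 comparison known when the list was drawn up, so its values are a description. SK-Hep1 miR-17 TuD had 71 counts over its 2 libraries and SK-Hep1 NC TuD 34, while HepG2 miR-17 TuD averaged 989.8 ± 24.7 CPM and HepG2 NC TuD 886 ± 23.6 CPM. The difference of the log2 fold changes, SK-Hep1 minus HepG2, was 0.987, and it ran from 0.75 to 1.20 with each library left out. The SK-Hep1 levels lie near those of hepatocyte transcripts that were unequal between the same arms, and their part was not tested.

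ALDH3B1, a family gene outside the list, was called in the difference of responses, at -0.7995 on the log2 scale. Its list was also drawn up with earlier results of these data known, so the value is a description. ALDH3B1 averaged 22.0 ± 3.10 CPM in HepG2 miR-17 TuD and 13.6 ± 1.47 CPM in HepG2 NC TuD (SD, n = 3 each), and 21.1 ± 0.777 CPM in SK-Hep1 miR-17 TuD and 22.8 ± 3.30 CPM in SK-Hep1 NC TuD (n = 2 each). HepG2 NC TuD was thus the group that stood apart, and every HepG2 miR-17 TuD library lay above every HepG2 NC TuD library.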

How the results depend on the processing

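Of 10 members, the number called in HepG2 was 7, and 3 (ALDH8A1, ALDH1L2 and ALDH18A1) with limma on the log2 matrix; ALDH1L1 also lost its call with DESeq2, RLE scaling and the replicate block. In the difference of responses 1 member was called, and 2 with RLE scaling. Over all genes the SK-Hep1 decoy had 116 calls, 274 with only the libraries compared, 58 with the replicate block and 62 with that block and the SK-Hep1 numbers crossed, a pairing added after the data were seen. The difference of responses had 500 calls, 227 with the replicate block and 245 with the crossed block; ALDH1A1 in SK-Hep1 kept its call under both (adjusted p = 0.0312 and 0.0218, edgeR). With the longest coding transcript as length, 4 members kept their rank in HepG2 miR-17 TuD and 5 in HepG2 NC TuD. With each library left out, members called ranged from 6 to 7 (HepG2), 0 to 1 (SK-Hep1), 0 to 2 (difference) and 10 to 10 between the lines, and all genes called from 1793 to 2694, 49 to 70, 266 to 613, 11201 to 11489 (NC TuD) and 11222 to 11540 (miR-17 TuD). Values that changed sign when a library was left out belonged to uncalled members: in HepG2 ALDH3A2 (-0.0133 to 0.0359) and ALDH9A1 (-0.0027 to 0.0284); in SK-Hep1 ALDH8A1 (-0.4868 to 0.5653), ALDH1L2 (-1.2035 to 0.4484), ALDH2 (-0.1098 to 0.3002), ALDH6A1 (-0.1479 to 0.1622) and ALDH9A1 (-0.0504 to 0.0107); and in the difference ALDH2 (-0.282 to 0.128) and ALDH9A1 (-0.0603 to 0.0008). The cause of these changes was not tested. Counts of at most 12 per SK-Hep1 library limit what can be said there of ALDH1L2, ALDH2, ALDH8A1 and ALDH1L1.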

Other observations

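All 7 tested family genes outside the list were called between the lines in NC TuD, as were 86.7% of all genes. ALDH1B1, which is close in sequence to ALDH2 and also oxidises acetaldehyde, averaged 13.7 ± 0.451 CPM in SK-Hep1 NC TuD and 199 ± 0.819 CPM in HepG2 NC TuD. ALDH4A1, which acts in proline breakdown, averaged 28.6 ± 2.95 CPM in SK-Hep1 NC TuD and 255 ± 10.8 CPM in HepG2 NC TuD. ALDH5A1, the succinic semialdehyde dehydrogenase of GABA breakdown, averaged 18.6 ± 1.31 CPM in SK-Hep1 miR-17 TuD and 124 ± 1.73 CPM in HepG2 miR-17 TuD. With ALDH1A3 and ALDH3B1 higher and 5 lower in SK-Hep1 NC TuD, these 7 genes had a median log2 difference of -1.91, against 0.02 over all genes. That median is the value of ALDH3A1, which had at most 10 counts in any SK-Hep1 library and passed the filter through HepG2. ALDH1A3, with at most 1 count in any HepG2 library, passed through SK-Hep1 alone. The filter had thus fixed the direction of both genes, and the median is a description.

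The 3′UTR of ALDH3B1 holds 1 7mer-m8 site.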
